A study of Mus musculus with 25 samples.

Results

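The genes described here are those of the elastic fiber, the elastin-and-microfibril network that gives the alveolar wall its recoil. The 10 members were chosen by name and not by level, although earlier results of these data were known. They are elastin (Eln), the fibrillins (Fbn1, Fbn2), the fibulins (Fbln1, Fbln2, Fbln5, Efemp2), the microfibril-associated proteins (Mfap4, Mfap5) and the latent TGF-beta binding protein Ltbp4. All 10 were among the 47729 genes counted in bulk RNA-seq, and all 10 were among the 15773 that passed the filter on low counts. The least counted member, Fbn2, had 11 reads in its lowest library.

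The mice of every group carried the tamoxifen-inducible Col1a1-Cre-ERT2 transgene, active in cells that use the collagen I promoter, and floxed Fas alleles (Col1a1-Cre-ERT2;Fas fl/fl). Naive mice received no bleomycin. The other 4 groups received intratracheal bleomycin, which injures the lung and is followed by fibrosis, and were taken at 3 or 6 weeks. The mice called Fas-/- were given tamoxifen after bleomycin and the mice called Fas+/+ were given corn oil in its place, so deletion of the death receptor Fas and exposure to tamoxifen cannot be told apart. Each of the 5 groups had 4 bulk libraries of lineage-negative (Lin-) lung cells, sorted as CD45-, CD31- and CD326-, and the total counts per library ranged from 11819700 to 25189096. The same 5 conditions were each profiled as 1 single-cell library from 4 pooled mice. Lungs were digested with an enzyme mixture that included elastase, and bulk RNA came from the sorted population as a whole, so that fewer cells of a type and less RNA per cell cannot be told apart.

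Elastic fibers are built in steps. Cells secrete fibrillins, which assemble into microfibrils decorated by microfibril-associated proteins. Tropoelastin is then carried to that scaffold by fibulins and crosslinked by lysyl oxidases. In the lung most elastin is laid down while alveoli form, by fibroblasts, smooth muscle cells and myofibroblasts, and the adult fiber turns over slowly.

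Whole-gene counts could not check the deletion, since a gene that has lost an exon can still be counted. The paper checked the deleted exon in its single-cell data. It reported that a smaller share of Fas-/- than of Fas+/+ cells expressed that exon at both times, and some Fas-/- cells still did. Fas had a median of 29.9 counts-per-million (CPM, reads of a gene scaled by the library's TMM-adjusted total) in the Fas+/+ libraries and 39.7 in the Fas-/- libraries at 6 weeks, and the difference was 0.36 on the log2 scale (SE 0.20, edgeR adjusted p = 0.719). Fas differed by 0.11 at 3 weeks (SE 0.20, edgeR adjusted p = 0.910). The 6 blood endothelial markers, whose cells the sort should remove, summed to 114 to 326 CPM in naive libraries and to 70.2 to 6741 CPM after bleomycin. In 3 libraries they stood apart from the rest of their group. These were replicate 1 of Fas+/+ at 3 weeks, at 6741 CPM where its group's median was 2055, replicate 4 of Fas-/- at 3 weeks, at 6197 CPM where its group's median was 651, and replicate 2 of Fas-/- at 6 weeks, at 2003 CPM where its group's median was 276. The erythroid markers moved the other way, at 2980 to 9591 CPM in naive libraries and 17.1 to 236 after bleomycin. The part of these cells in the results below was not tested beyond the values without those libraries.

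Promoter sequence was read from RefSeq windows on GRCm38.p6, the build of the deposited counts. Windows of 6 of the 10 members were searched, and Fbn2 was left out of the search. The 4 windows shown hold no base of an annotated exon of their gene. Fbln1, Fbln5 and Ltbp4 are shown because their levels moved together after bleomycin, and Efemp2 because it did not pass in either 3-week comparison. Each run is the 250 bases upstream of a RefSeq start, 5′ to 3′ on the gene's strand, and capitals mark a GC box (GGGCGG) or a SMAD box (CAGAC) on either strand. The Fbln1 window is chr15:85205699-85205948 (+ strand), that of Fbln5 is chr12:101819120-101819369 (- strand), that of Ltbp4 is chr7:27333664-27333913 (- strand, an internal start), and that of Efemp2 is chr19:5473696-5473945 (+ strand).
Fbln1: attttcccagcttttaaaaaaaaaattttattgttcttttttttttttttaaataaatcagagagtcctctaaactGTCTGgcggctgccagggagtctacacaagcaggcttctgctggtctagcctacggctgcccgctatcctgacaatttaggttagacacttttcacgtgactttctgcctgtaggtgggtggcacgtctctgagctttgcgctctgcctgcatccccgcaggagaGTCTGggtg
Fbln5: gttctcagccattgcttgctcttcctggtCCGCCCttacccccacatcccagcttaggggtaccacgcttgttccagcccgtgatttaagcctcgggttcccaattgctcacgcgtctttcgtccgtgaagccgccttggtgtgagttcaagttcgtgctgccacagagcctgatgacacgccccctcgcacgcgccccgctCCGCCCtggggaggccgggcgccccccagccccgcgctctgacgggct
Ltbp4: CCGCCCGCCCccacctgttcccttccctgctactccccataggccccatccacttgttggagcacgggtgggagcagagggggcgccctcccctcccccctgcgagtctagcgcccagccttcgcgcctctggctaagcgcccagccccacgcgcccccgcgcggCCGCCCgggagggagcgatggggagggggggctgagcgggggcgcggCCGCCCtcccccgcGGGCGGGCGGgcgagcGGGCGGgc
Efemp2: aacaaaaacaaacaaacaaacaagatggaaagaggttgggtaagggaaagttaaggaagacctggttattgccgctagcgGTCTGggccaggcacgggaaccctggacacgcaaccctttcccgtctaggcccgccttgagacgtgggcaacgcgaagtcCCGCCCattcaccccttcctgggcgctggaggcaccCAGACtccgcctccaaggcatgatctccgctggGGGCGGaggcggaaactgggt

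The Fbln1 window held 0 GC boxes and 2 SMAD boxes, the Fbln5 window 2 and 0, the Ltbp4 window 7 and 0, counting overlapping matches, and the Efemp2 window 2 and 2. Over all 32851 windows in the table, 32.7% held a GC box and 42.2% a SMAD box. Neither a TATA box (TATAAA, in 12.4% of all windows) nor an AP-1 motif (TGANTCA, in 6.75%) occurred in the 12 windows of the 6 members searched. These are letter matches only. Eln, Mfap4 and Mfap5 had no window, and Fbn2 was not searched.

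In the naive lung the members spanned a wide range. Per kilobase of annotated exon, Mfap4, which binds both microfibrils and tropoelastin, was the most abundant at a median of 1849 CPM per kilobase, above every library's value for Eln, whose median was 491. Eln and Ltbp4 (384) overlapped in their ranges, as did Fbln1 (210) and Fbn1 (160). Mfap5 (58.5), Fbln5 (41.2), Fbln2 (32.1) and Efemp2 (28.5) followed, the last 3 overlapping with their neighbors. Fbn2, the fibrillin of developing tissue, came last at 0.161. On this scale Mfap4 stayed first, Eln second and Fbn2 last in all 5 groups. The ranges of Mfap4 and Eln overlapped, however, in Fas+/+ libraries at 3 weeks after bleomycin. Without the length scaling the mean CPM of Eln was above that of Mfap4 in all 5 groups, at 3715 against 3527 in naive mice. The genes that overlap another gene on the opposite strand are Eln (chr5:134702593-134747323, - strand), Fbn1 (chr2:125300594-125507993, - strand), Efemp2 (chr19:5473954-5482517, + strand) and Mfap4 (chr11:61485431-61488900, + strand), and Fbn2 overlaps a long noncoding gene, Gm26507, in 236 of its exon bases. The largest of these overlaps is that of Fbn1, with 2442 of its 12128 exon bases within the protein-coding gene Gm9913. The library kit kept strand but the strand setting of the counting was not given in the sources used here. Reads of the partner genes could therefore be included in the counts of these members.

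**Figure D1:**
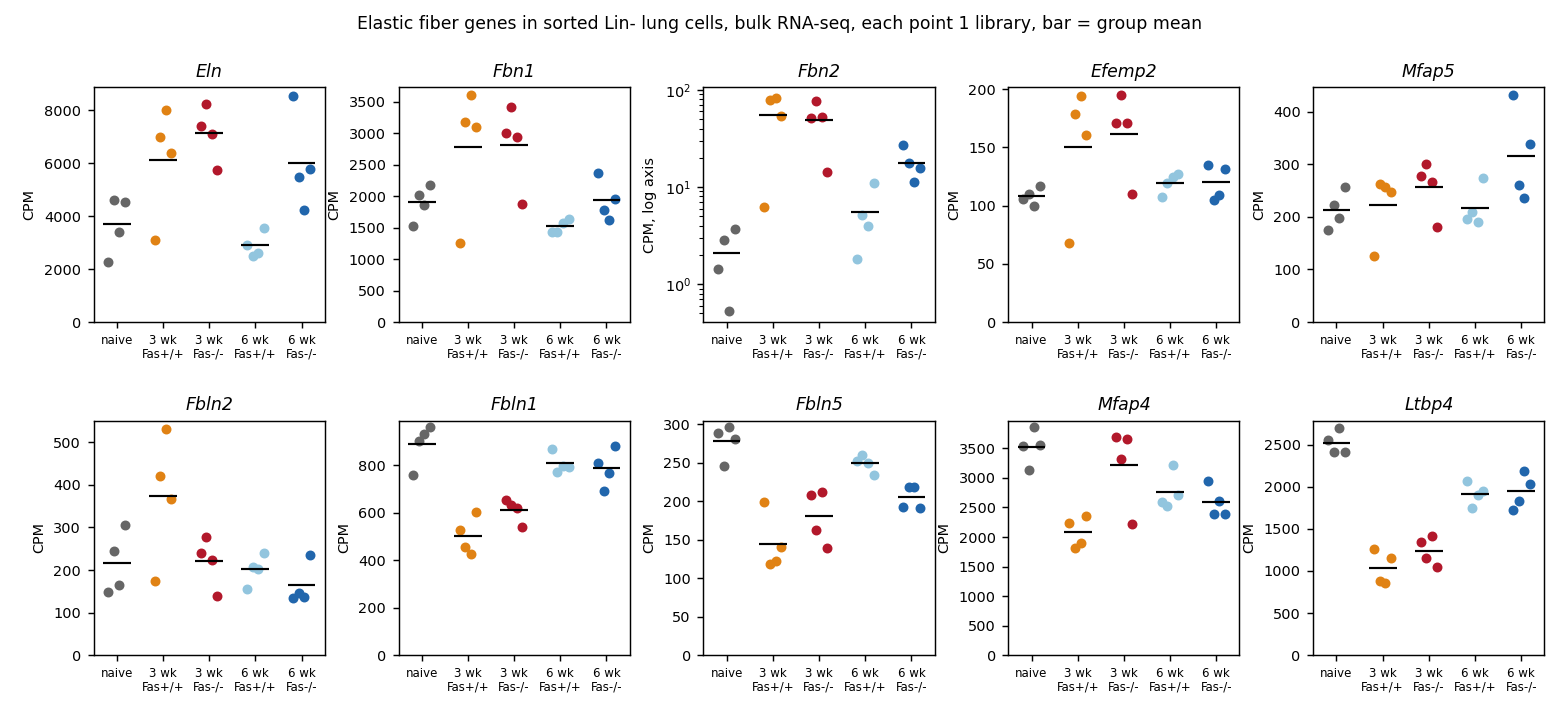
CPM of each of the 10 elastic fiber genes in the 20 bulk libraries, by group, with each point 1 library and the bar the group mean; Fbn2 has a log axis and the others start at 0. Eln, Fbn1, Fbn2 and Efemp2 share 1 low Fas+/+ library at 3 weeks (replicate 1), and Ltbp4, Fbln5 and Fbln1 were below every naive library in both 3-week groups.

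At 3 weeks after bleomycin the members split. Elastin and Fbn2 were higher than in naive mice in both genotypes, Fbln2 was higher at the threshold in Fas+/+ mice, and Fbln1, Fbln5 and Ltbp4 were lower in both. In Fas+/+ mice 7 of the 10 members passed an adjusted p of 0.05, 3 higher and 4 lower, where 41.3% of all genes tested passed (22.1% higher and 19.2% lower). In Fas-/- mice 5 passed, 2 higher and 3 lower, against 32% of all genes (17.2% higher and 14.8% lower). The median log2 change over the 10 members was 0.27 in Fas+/+ and 0.15 in Fas-/-, beside 0.01 and 0.02 over all genes. Both comparisons used the same 4 naive libraries.

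Elastin, the elastic core of the fiber, was read at 2286, 4617, 3409 and 4547 CPM in the naive libraries. The Fas+/+ libraries at 3 weeks held 3087, 6996, 7997 and 6403 CPM, and the Fas-/- libraries 7426, 8227, 7114 and 5745. Every Fas-/- library was above every naive library, while the Fas+/+ library with most endothelial RNA lay within the naive range. Eln rose by 0.72 on the log2 scale in Fas+/+ mice (SE 0.27, edgeR adjusted p = 0.0415) and by 0.94 in Fas-/- mice (SE 0.27, edgeR adjusted p = 0.0145). The exact permutation p was 0.114 in Fas+/+ and 0.0286 in Fas-/- mice. The call in Fas+/+ mice was lost when naive replicate 1 (edgeR adjusted p = 0.149) or naive replicate 3 (0.0913) was left out, and likewise without Fas+/+ replicate 2 (0.0991), 3 (0.137) or 4 (0.0757), and the change was 0.94 without replicate 1.

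Fbn1, the main fibrillin of adult microfibrils, stood at 1530 to 2177 CPM in naive libraries. At 3 weeks it was 1251, 3168, 3607 and 3099 CPM in Fas+/+ and 3006, 3417, 2941 and 1878 in Fas-/- mice. In each genotype the low value was the library with most endothelial RNA, and neither comparison passed the test (log2 0.55 ± 0.24 SE with edgeR adjusted p = 0.0774, and 0.57 ± 0.24 with 0.0824). Without the most endothelial library of each bleomycin group, a check chosen after the data were seen, Fbn1 passed in both (log2 0.79 and 0.71). The share of all genes called was then 50.4% in Fas+/+ and 39% in Fas-/- mice, in place of 41.3% and 32%.

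Fbn2 had the largest change of the 10. Its naive values were low, at 1.42, 2.84, 0.525 and 3.68 CPM. At 3 weeks it was read at 6.23, 78.2, 82.5 and 54.4 CPM in Fas+/+ and at 52.0, 77.8, 52.8 and 14.4 CPM in Fas-/- mice. All 8 libraries lay above the naive ones, the lowest in each group again being the library with most endothelial RNA. The log2 change was 4.69 (SE 0.77) in Fas+/+ and 4.52 (SE 0.76) in Fas-/- mice, with edgeR adjusted p = 0.000164 and 0.000368 and an exact permutation p of 0.0286, the smallest that 4 against 4 allows.

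Efemp2, also called fibulin-4, which brings lysyl oxidase to tropoelastin, was read at 99.5 to 117 CPM in naive mice. It was 67.6, 179, 194 and 160 CPM in Fas+/+ and 171, 195, 171 and 110 CPM in Fas-/- mice at 3 weeks. The means of 150 ± 56.9 and 162 ± 36.6 (SD, n = 4) did not differ from naive at the threshold (log2 0.48 and 0.58, edgeR adjusted p = 0.103 and 0.0586). Mfap5, which binds fibrillin, gave 213 ± 34.9 CPM in naive, 223 ± 64.9 in Fas+/+ and 257 ± 52.8 in Fas-/- mice (SD, n = 4), and neither passed.

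Fbln2, a fibulin of vessel walls and of remodeling tissue, was 148, 244, 164 and 306 CPM in naive libraries and 174, 421, 531 and 368 CPM in Fas+/+ libraries at 3 weeks. Its groups overlapped, and the rise of 0.79 on the log2 scale (SE 0.30) had an edgeR adjusted p of 0.0441 and an exact permutation p of 0.114. In Fas-/- mice Fbln2 was 241, 277, 223 and 140 CPM, within or near the naive range, with a log2 difference of 0.03 (SE 0.30) from naive. The direct comparison of the genotypes gave -0.76 (SE 0.30, edgeR adjusted p = 0.457).

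Ltbp4 is the latent TGF-beta binding protein that acts with Fbln5 in elastin assembly. Naive libraries held 2554, 2406, 2693 and 2413 CPM, Fas+/+ libraries at 3 weeks 1263, 877, 854 and 1150, and Fas-/- libraries 1344, 1155, 1415 and 1049. The naive and bleomycin values did not overlap in either genotype. Ltbp4 fell by 1.28 (SE 0.13) and by 1.02 (SE 0.13) on the log2 scale, with edgeR adjusted p = 1.79e-06 and 3.24e-05.

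Fbln5, which tethers elastin to cells through integrins, was 288, 246, 296 and 281 CPM in naive libraries. It was 199, 119, 122 and 140 CPM in Fas+/+ and 208, 163, 212 and 139 in Fas-/- mice at 3 weeks, all below the naive range. Fbln5 fell by 0.94 (SE 0.15) and by 0.62 (SE 0.15) on the log2 scale, with edgeR adjusted p = 0.000109 and 0.00404. Fbln1, a fibulin of basement membranes and microfibrils, went from 759 to 962 CPM in naive libraries to 426 to 604 in Fas+/+ and 538 to 654 in Fas-/- libraries. Its fall was 0.82 (SE 0.11) and 0.54 (SE 0.11), again with no overlap. Members whose 3-week groups did not overlap the naive group numbered 5 in each genotype, where 32.2% and 31.1% of all genes did not overlap.

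Mfap4 was lower in Fas+/+ mice at 3 weeks and did not pass in Fas-/- mice. Naive libraries held 3548, 3132, 3868 and 3560 CPM, Fas+/+ libraries 2239, 1821, 1900 and 2357, and Fas-/- libraries 3689, 3325, 3662 and 2213. Mfap4 fell by 0.76 (SE 0.15, edgeR adjusted p = 0.000582) in Fas+/+, and the difference in Fas-/- was -0.13 (SE 0.14, edgeR adjusted p = 0.521). Lipofibroblast marker sums were 5940 to 6856 CPM in naive, 2371 to 3663 in Fas+/+ and 3620 to 4893 in Fas-/- libraries at 3 weeks, and their part in the result was not tested.

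**Figure D2:**
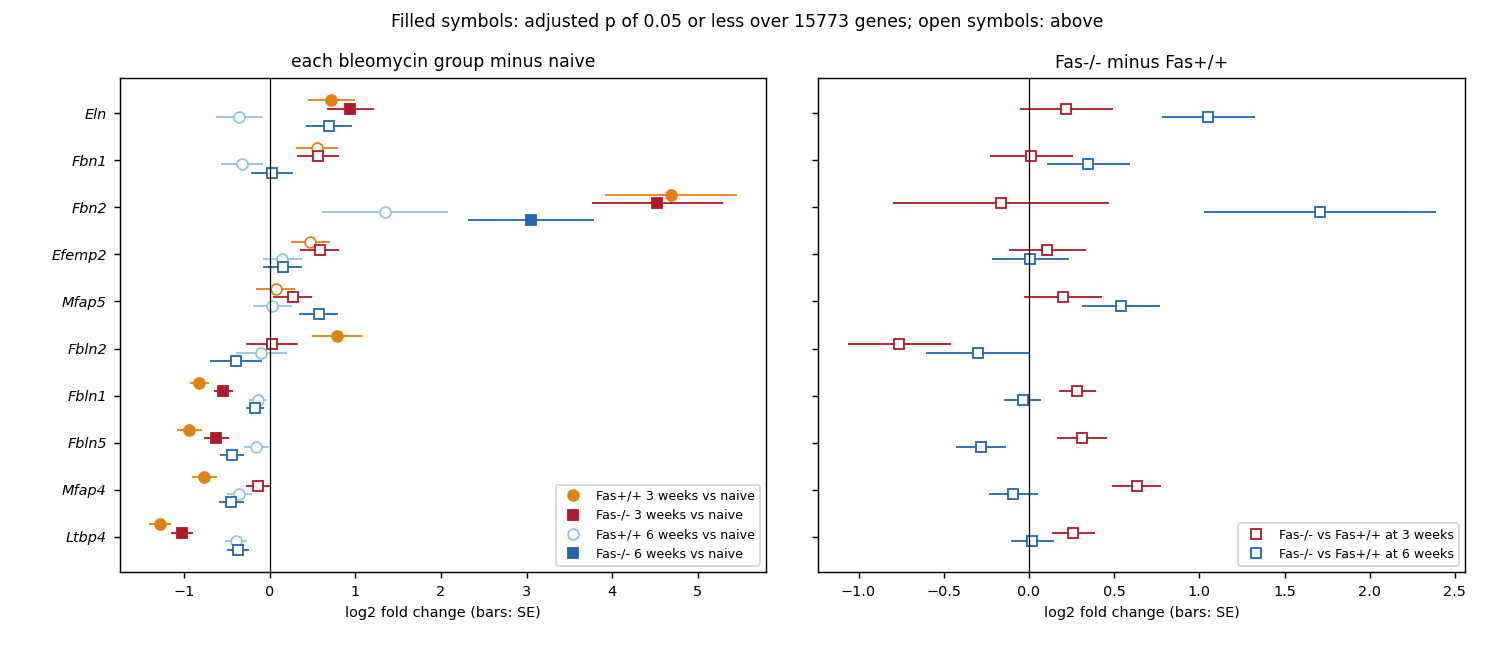
Log2 fold changes of the 10 members from edgeR, with bars for the SE, for each bleomycin group against naive (left) and for Fas-/- against Fas+/+ (right); filled symbols passed an adjusted p of 0.05 over 15773 genes. Fbn2 has the largest rise in each comparison with naive, Ltbp4 the largest fall at 3 weeks, and the right panel holds 0 filled symbols.

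By 6 weeks most of these differences were smaller. In Fas+/+ mice 0 of 10 members passed against naive in edgeR, where 5.31% of all genes did; 2 had an unadjusted p under 0.05 (19.5% of all genes), and DESeq2 called 1 (7.53% of all genes to which it gave an adjusted p), Ltbp4, at a log2 change of -0.40. In Fas-/- mice 1 member passed in edgeR, Fbn2, where 6.48% of all genes did, while 6 had an unadjusted p under 0.05 (21% of all genes) and DESeq2 called 4 (8.71% of all genes). Fbn2 was 26.8, 17.6, 11.3 and 15.5 CPM in Fas-/- libraries at 6 weeks, all above the naive ones, and rose by 3.06 (SE 0.74, edgeR adjusted p = 0.0191). That call was lost without naive replicate 1 (edgeR adjusted p = 0.0601) or naive replicate 3 (0.0642). In Fas+/+ libraries it was 1.82, 5.21, 4.02 and 10.9 CPM, overlapping naive (log2 1.35, SE 0.73, edgeR adjusted p = 0.330).

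Eln at 6 weeks was 2902, 2511, 2620 and 3551 CPM in Fas+/+ mice, at the low end of the naive range (log2 -0.36, SE 0.27, edgeR adjusted p = 0.513). In Fas-/- mice it was 8556, 5474, 4247 and 5771 CPM, with all but the lowest library above the naive range (log2 0.69, SE 0.27, edgeR adjusted p = 0.144). Ltbp4 was below all naive libraries in both genotypes, at 1750 to 2067 and 1727 to 2185 CPM, and Fbln5 and Mfap4 were below them in Fas-/- mice, at 192 to 218 and 2387 to 2956 CPM. None of these 3 genes passed in edgeR, and 16.6% of all genes in Fas+/+ and 16.1% in Fas-/- mice did not overlap naive. Without the most endothelial library of each bleomycin group, Fas-/- mice gave 6 calls against naive at 6 weeks in place of 1, and the share of all genes called was 11.7% in place of 6.48%.

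The comparison of Fas-/- with Fas+/+ mice was made to study loss of Fas from Col1a1-expressing cells, and it also compares tamoxifen with corn oil. At 3 weeks 0 of 10 members passed in edgeR, where 0.171% of all genes did. There 4 had an unadjusted p under 0.05 (8.62% of all genes) and DESeq2 called 1 (0.964% of all genes). That member was Mfap4, which was 0.63 higher on the log2 scale in Fas-/- mice (SE 0.15, edgeR adjusted p = 0.0840, DESeq2 adjusted p = 0.00315). The 2 groups overlapped in 1 Fas-/- library, replicate 4. Without it the difference was 0.78 (edgeR adjusted p = 0.00488), and without Fas+/+ replicate 1 it was 0.67 (edgeR adjusted p = 0.0423) and Fbln5 passed as well (log2 0.50).

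At 6 weeks 0 of 10 members passed in edgeR, where 0.0507% of all genes did, 3 had an unadjusted p under 0.05 (8.07% of all genes), and DESeq2 called 1 (0.951% of all genes). That member was Eln. The lowest Fas-/- library (4247 CPM) was above the highest Fas+/+ library (3551), and the group means were 6012 ± 1820 and 2896 ± 467 CPM (SD, n = 4). The difference was 1.05 on the log2 scale (SE 0.27), with an edgeR adjusted p of 0.174, a DESeq2 adjusted p of 0.0172 and an exact permutation p of 0.0286. With each library of these groups left out in turn the difference ran from 0.83 to 1.18, and it passed in edgeR in 0 of those 8 fits, among them 1.09 (edgeR adjusted p = 0.225) without the endothelial-rich Fas-/- replicate 2. Fbn2 (log2 1.71, SE 0.68, edgeR adjusted p = 0.488) and Fbln5 (log2 -0.28, SE 0.15, edgeR adjusted p = 0.686) also had groups that did not overlap, as 6.81% of all genes had. Epithelial markers summed to 521 to 1418 CPM in Fas+/+ and 135 to 402 CPM in Fas-/- libraries at 6 weeks, with no overlap. With their mean as a covariate, chosen after the data were seen, the Eln difference was 0.71 (edgeR adjusted p = 0.771).

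Of the other members at 6 weeks, Fbn1 was 1429 to 1633 CPM in Fas+/+ and 1625 to 2372 in Fas-/- mice, and Mfap5 was 191 to 274 and 236 to 431 CPM. Their log2 differences were 0.35 (SE 0.24) and 0.54 (SE 0.23) and did not pass. Ltbp4, Efemp2 and Fbln1 differed by 0.02, 0.01 and -0.04, with SEs of 0.13, 0.23 and 0.11. Mfap4 and Fbln2 differed by -0.09 (SE 0.14) and -0.30 (SE 0.30) and did not pass either.

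From 3 to 6 weeks 8 of 10 members changed in Fas+/+ mice, where 22.9% of all genes did (12% higher and 10.9% lower). Eln fell by 1.08 (SE 0.27), Fbn1 by 0.87 (SE 0.24), Fbn2 by 3.34 (SE 0.71) and Fbln2 by 0.89 (SE 0.30). The groups of each overlapped, with an exact permutation p of 0.0571, 0.143, 0.0571 and 0.114 in the same order. Ltbp4 rose by 0.89 (SE 0.13), Fbln5 by 0.78 (SE 0.15), Fbln1 by 0.69 (SE 0.11) and Mfap4 by 0.41 (SE 0.14), the last with an edgeR adjusted p of 0.0497. The groups of these genes that rose did not overlap (exact permutation p of 0.0286 for each). This comparison shares the 3-week Fas+/+ libraries with the comparison to naive. In Fas-/- mice 2 of 10 changed, where 9.02% of all genes did. Ltbp4 rose by 0.65 (SE 0.13) and Fbln1 by 0.37 (SE 0.11), while Eln differed by -0.25 (SE 0.27, edgeR adjusted p = 0.601) and Fbn2 by -1.47 (SE 0.65, edgeR adjusted p = 0.165). Without the most endothelial library of each bleomycin group the Fas-/- count was 6 and the share of all genes 16.7%. The single-cell libraries, described further on, did not follow the bulk time course for most of these genes.

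Whether the genotypes changed differently between the times was tested by the interaction. 0 of 10 members passed in edgeR, where 0.00634% of all genes did, 3 had an unadjusted p under 0.05 (7.67% of all genes), and DESeq2 called 0 (0.516% of all genes). The interaction for Eln was 0.83 (SE 0.38, edgeR adjusted p = 0.636), for Mfap4 -0.72 (SE 0.20, edgeR adjusted p = 0.275) and for Fbln5 -0.59 (SE 0.21, edgeR adjusted p = 0.412). Fbln5 passed without replicate 1 of Fas+/+ at 3 weeks (-0.78, edgeR adjusted p = 0.0355) and Mfap4 without replicate 4 of Fas-/- at 3 weeks (-0.88, edgeR adjusted p = 0.0341).

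Across the 20 libraries, after removing group means, Eln, Fbn1, Fbn2, Fbln2, Efemp2 and Mfap5 varied together, with Pearson's r of 0.74 to 0.96 over the 15 pairs. Fbln5, Mfap4 and Ltbp4 varied together at 0.58 to 0.80, and the 18 pairs between the sets gave -0.56 to 0.20. Fbln1 gave 0.31 to 0.59 with the second set and -0.06 to 0.23 with the first. The sets were grouped from these same data, so the values within and between them are no test. They are descriptions over libraries that also share depth and cell content. Profibrotic marker sums were 12288 to 17139 CPM in naive libraries, although the naive single-cell library held 0 of 603 cells of the profibrotic class. The sum is thus no measure of that class alone. In Fas+/+ libraries at 3 weeks it ran from 10691 to 53036 CPM. Its lowest was replicate 1, below every naive library. That replicate was also the lowest of its group for Eln, Fbn1, Fbn2, Fbln2, Efemp2 and Mfap5. In Fas-/- libraries at 3 weeks the lowest sum was that of the endothelial-rich replicate 4, at 19107 CPM. That library was also the lowest of its group for Eln, Fbn1, Fbn2, Fbln2 and Efemp2. It was the lowest for Fbln5, Mfap4 and Ltbp4 of the second set as well, whereas replicate 1 of Fas+/+ was not. Over all 20 libraries the genes whose log2 CPM was most like that of Eln were Ppic (r = 0.935), Col5a2 (0.924), Sparc (0.917), Ctsk (0.914) and Mcrip1 (0.913).

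The enzymes that crosslink elastin, and the proteases that cut it, were followed in lists chosen by function. Of 5 crosslinking enzymes, 1 rose at 3 weeks in Fas+/+ mice, Loxl2 (log2 0.81, SE 0.31, edgeR adjusted p = 0.0411), which in Fas-/- mice gave 0.35 (SE 0.30, edgeR adjusted p = 0.397). Of all genes tested, 22.1% passed as higher in Fas+/+ mice at 3 weeks. Loxl2 and Lox, the lysyl oxidases, fell by 1.13 (SE 0.31) and by 0.80 (SE 0.23) between 3 and 6 weeks in Fas+/+ mice, where 10.9% of all genes fell. The median of the list was 0.53 and 0.26 at 3 weeks, beside 0.01 and 0.02 over all genes.

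Of 19 related microfibril and fibulin genes, 6 rose and 6 fell in Fas+/+ mice at 3 weeks, and 7 rose and 6 fell in Fas-/- mice. Over all genes 22.1% rose and 19.2% fell in Fas+/+ mice, and 17.2% rose and 14.8% fell in Fas-/- mice. The smallest adjusted p in Fas+/+ mice belonged to Adamts10 and Adamtsl5, of the ADAMTS superfamily that acts on microfibrils, and to Efemp1, fibulin-3, at log2 changes of -0.94, -0.63 and -0.81. In Fas-/- mice they belonged to Emilin3 (5.75), Ltbp2 (1.61) and Mfap2 (0.64). At 6 weeks Fas-/- mice had 4 higher and 1 lower, among them Fbln7 (2.04, SE 0.35) and Ltbp2 (1.80, SE 0.34), while Fas+/+ mice had 1 higher and 1 lower. The share of all genes that passed against naive was 6.48% in Fas-/- and 5.31% in Fas+/+ mice. In the genotype comparison at 6 weeks 1 gene of the list passed, where 0.0507% of all genes did. Hmcn1, hemicentin-1, a giant matrix protein related to the fibulins, was 0.64 higher in Fas-/- mice (SE 0.11, edgeR adjusted p = 0.0371).

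Of 10 proteases that can degrade elastin, 7 were tested. In Fas+/+ mice 4 rose and 1 fell at 3 weeks, where 22.1% of all genes rose and 19.2% fell. In Fas-/- mice 5 rose and 1 fell, where 17.2% of all genes rose and 14.8% fell. The macrophage-associated Ctss rose by 6.33 (SE 1.19) and by 7.34 (SE 1.19) on the log2 scale, and Mmp9 by 3.43 (SE 0.65) and by 3.58 (SE 0.65). The hematopoietic markers, including the gated antigen Ptprc, summed to 2.33 to 4.23 CPM in naive and 27.6 to 75.9 CPM in 3-week libraries, and their part in these 2 genes was not tested. Of 5 inhibitors, Timp1 rose by 3.62 (SE 0.58) in Fas+/+ and by 3.48 (SE 0.58) in Fas-/- mice at 3 weeks, while Timp3 fell by 0.75 (SE 0.08) and by 0.70 (SE 0.08). In total 1 inhibitor rose and 4 fell in Fas+/+ and 1 rose and 2 fell in Fas-/- mice, beside the same shares of all genes.

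The single-cell libraries placed the members in cell classes. They held 13900 barcodes, of which 12059 cells were kept, and the conditions had 1 library each, so no test was possible and the intervals cover counting error only. Libraries shared cell barcodes. In the naive library 350 of 603 cells (58.0%) had a barcode also found in another library, with a median of 11973 UMIs against 4520 for the others. In the remaining libraries 6.08% to 14.8% of cells did, with medians of 758 to 1134 UMIs against 6264 to 10858. The shared cells were thus the deeper ones in the naive library and the shallower ones in the others. Which library a shared barcode came from was not tested, and naive levels rest most on such cells. Without the shared cells only the lipofibroblast-like (54 cells) and Hhip myofibroblast-like (26 cells) classes of fibroblasts kept 20 naive cells, and ratios to naive are given with and without them for Eln and Ltbp4. Clusters were formed without the members and named from fixed markers, and 6 clusters stayed unnamed, among them cluster 0, led by Saa3 and Lcn2.

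**Figure D3:**
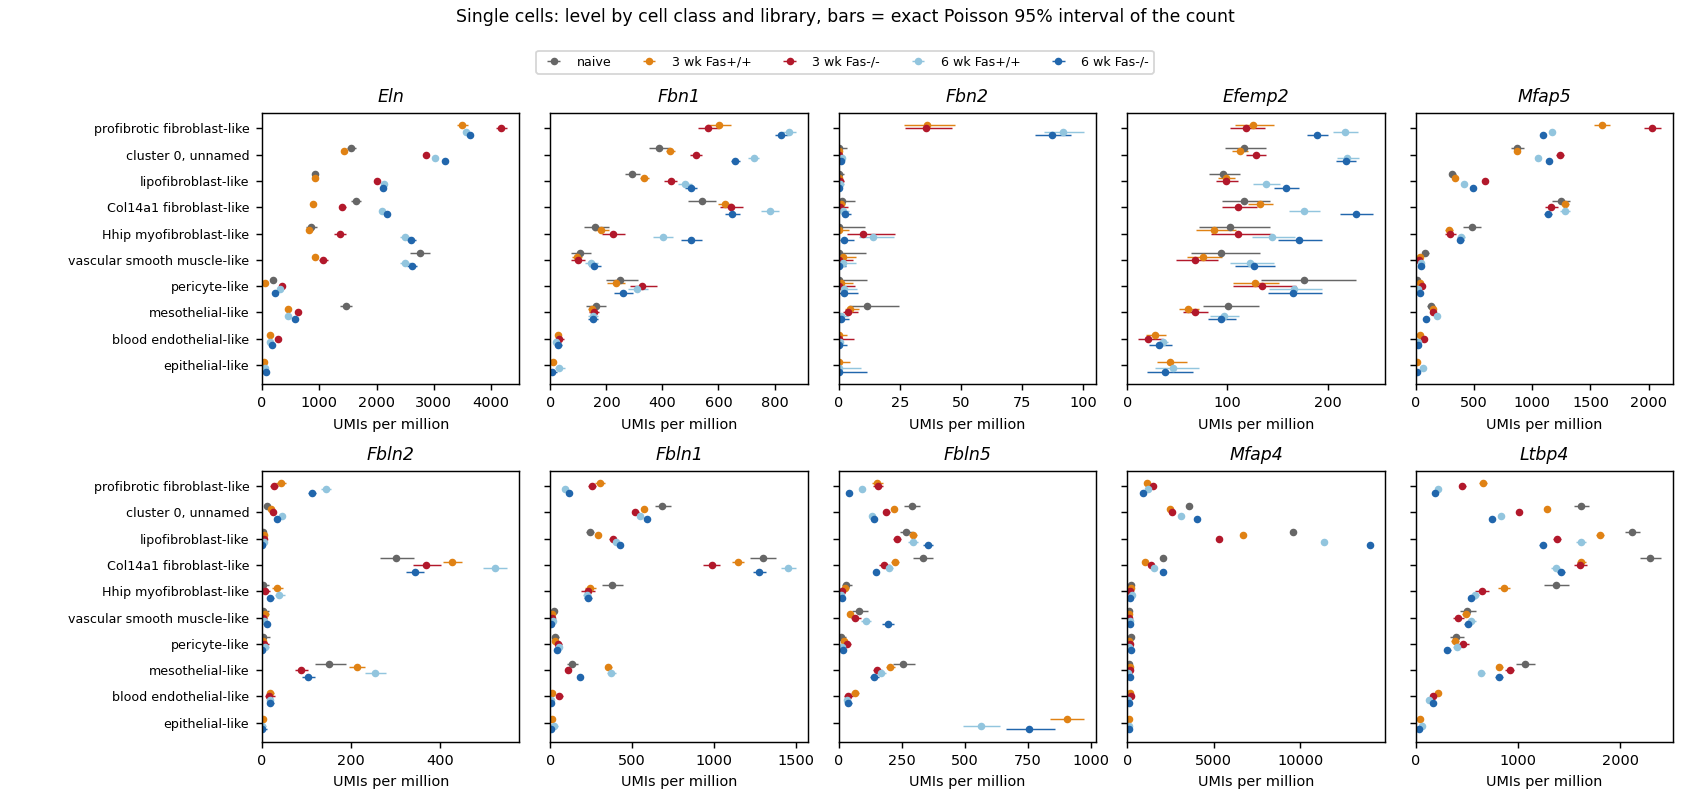
UMI CPM of each member in 10 cell classes, with 1 point per condition and library and bars for the exact Poisson interval of the count at 95%. Fbn2 is highest in the profibrotic fibroblast-like class, Mfap4 is highest in lipofibroblast-like cells, Fbln2 in Col14a1 fibroblast-like cells and Fbln5 in epithelial-like cells.

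Fbn2 was the most restricted member. In profibrotic fibroblast-like cells it stood at 36.1 UMI CPM (the class's UMIs of a gene scaled by all its UMIs, 95% exact Poisson interval 26.7 to 47.7) in Fas+/+ and 35.6 (26.9 to 46.2) in Fas-/- cells at 3 weeks, and at 91.8 (83.8 to 100.3) and 87.3 (80.2 to 94.9) at 6 weeks. In the other classes plotted it was at most 14.2, in Hhip myofibroblast-like cells of Fas+/+ mice at 6 weeks. In the erythroid-like class, not plotted and named from hemoglobin genes, it reached 30.5 in Fas-/- mice at 6 weeks. At a resolution of 0.4 the erythroid-like class also had Spp1 and Cthrc1 among its leading genes, as the profibrotic class did here. Which cells of the erythroid-like class held Fbn2 was not tested. The profibrotic class held 73.1% and 75.7% of all Fbn2 UMIs at 3 weeks and 87.2% and 85.8% at 6 weeks, with 5.1% to 18.9% of all UMIs. At a clustering resolution of 0.4 this class was not separate. The naive library held 0 of 603 cells of that class, which allows a share of up to 0.498%. The level at 6 weeks over that at 3 weeks within the class was higher without shared barcodes, at 3.92 in place of 2.54 in Fas+/+ cells.

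Eln was broad but uneven. Profibrotic fibroblast-like cells held 3497, 4179, 3569 and 3631 UMI CPM in Fas+/+ and Fas-/- at 3 weeks and Fas+/+ and Fas-/- at 6 weeks. Lipofibroblast-like cells held 928 in naive mice (1269 without shared barcodes) and 919, 2012, 2123 and 2117 in the same order, and cluster 0 held 1562, 1428, 2856, 3017 and 3196. In vascular smooth muscle-like cells Eln was 2756 in naive mice, 923 and 1072 at 3 weeks and 2504 and 2617 at 6 weeks. That naive value rests on 26 cells, and without shared barcodes the class kept under 20 naive cells. Hhip myofibroblast-like cells held 857 in naive mice (956 without shared barcodes), 825 and 1359 at 3 weeks and 2500 and 2608 at 6 weeks. Endothelial-like cells held 142 to 278 and epithelial-like cells 33.8 to 69.3.

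The whole-library Eln level at 6 weeks was higher in Fas-/- than in Fas+/+ cells by a ratio of 1.29 (95% exact interval 1.27 to 1.30). Within the 4 fibroblast-like classes and cluster 0 the ratio lay between 1.00 and 1.06, with or without shared barcodes. Cluster 0 and unnamed cluster 6 both scored highest on the lipofibroblast markers, below the naming threshold, and cluster 6 was not counted here. Blood endothelial-like cells made up 26.7% of the Fas+/+ library and 6.1% of the Fas-/- library at 6 weeks. Unnamed cluster 8, which scored highest on the blood endothelial markers, made up 10.2% and 2.1%. The 4 fibroblast-like classes and cluster 0 each had a larger share in the Fas-/- library, cluster 0 at 17.1% against 10.5%. In bulk at 6 weeks blood endothelial marker sums overlapped, at 334 to 1265 CPM in Fas+/+ and 70.2 to 2003 in Fas-/- libraries. The part of these shares in the Eln difference was not tested. At 3 weeks the whole-library ratio was 1.92 (1.89 to 1.96) and the class ratios ran from 1.19 to 2.19 (1.26 to 2.23 without shared barcodes). Against the naive library, Eln at 3 weeks was 0.83 in Fas+/+ and 1.60 in Fas-/- cells, whereas in bulk both groups were higher. Within classes these ratios were 0.54 to 0.99 and 0.86 to 2.17 over 4 classes, and 0.73 to 0.83 and 1.495 to 1.62 without shared barcodes over 2.

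The time course also differed between the assays. In Fas+/+ cells the whole-library level at 6 weeks over that at 3 weeks was 1.82 for Eln, 1.37 for Fbn1, 6.42 for Fbn2 and 1.26 for Fbln2, the members that fell in bulk. It was 0.54 for Ltbp4, 0.57 for Fbln5, 0.76 for Fbln1 and 0.93 for Mfap4, the members that rose in bulk. In Fas-/- cells Ltbp4, which rose in bulk, was at 0.71, and Fbln1 was at 1.06. Within the 5 fibroblast classes of Fas+/+ cells the ratio ran from 1.02 to 3.03 for Eln and from 0.33 to 0.90 for Ltbp4, and for Mfap4 from 1.05 to 1.69. The ratios have 1 library at each time, and what sets the assays apart was not tested.

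**Figure D4:**
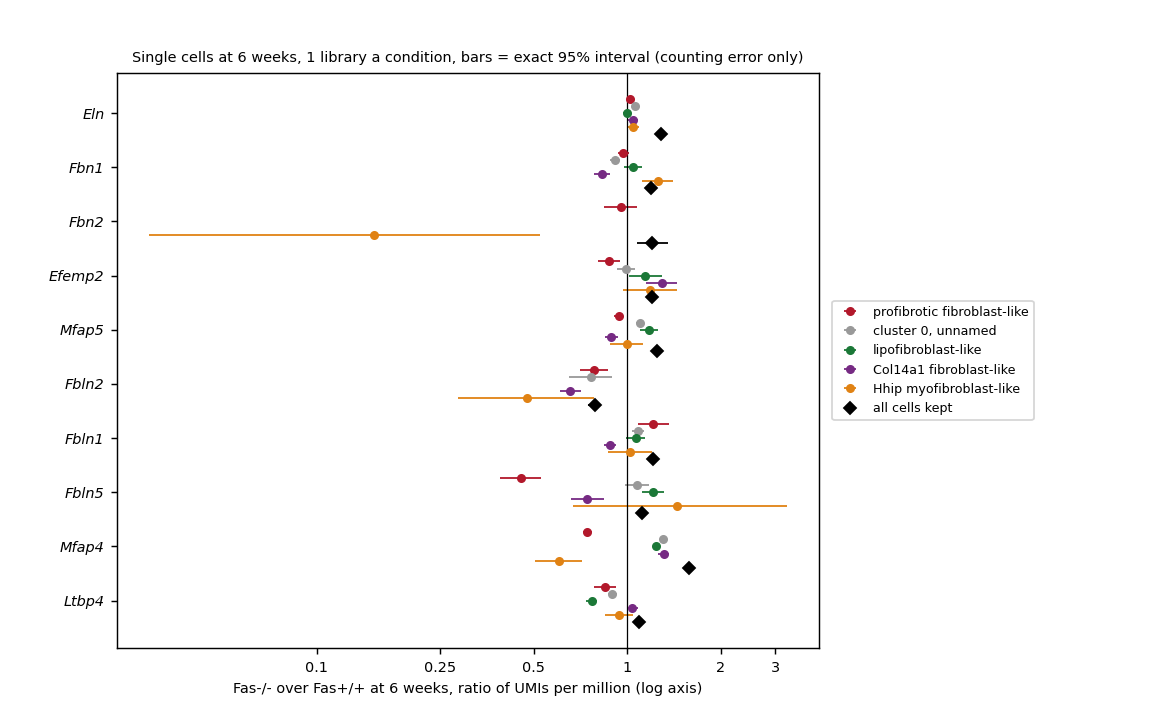
Ratio of UMI CPM in Fas-/- over Fas+/+ cells at 6 weeks on a log axis, for each member, within 5 fibroblast classes and over all cells kept (diamonds), with exact 95% intervals that cover counting error only. For Eln the 5 classes lie between 1.00 and 1.06 and the diamond at 1.29. For Fbln5 the classes run from 0.45, in profibrotic cells, to 1.45, and the diamond lies at 1.12.

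Lipofibroblast-like cells held 47.7% to 66.7% of the UMIs of Mfap4. Its level there was 9580 UMI CPM in naive cells, 6715 and 5298 at 3 weeks in Fas+/+ and Fas-/- and 11354 and 14066 at 6 weeks, while profibrotic cells held 907 to 1494. Over all cells, Mfap4 at 6 weeks was 1.58 times as high in Fas-/- as in Fas+/+ cells, and 0.60 to 1.31 within those 5 classes. In bulk its genotype difference at 6 weeks was -0.09 on the log2 scale (SE 0.14, edgeR adjusted p = 0.976). At 3 weeks the single-cell ratio was 0.97 over all cells and 0.79 to 1.32 within classes, where bulk gave a log2 difference of 0.63. What sets the assays apart was not tested.

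Ltbp4 was lowest among fibroblasts in the profibrotic class. It stood there at 657 and 456 UMI CPM at 3 weeks and at 218 and 185 at 6 weeks. Lipofibroblast-like cells held 2117 in naive, 1804 and 1383 at 3 weeks and 1615 and 1241 at 6 weeks, and Col14a1 fibroblast-like cells 2291, 1618, 1608, 1369 and 1422 in the same order. The ratio of Ltbp4 at 3 weeks to naive was taken within the 4 fibroblast classes with values, cluster 0 among them. It was 0.63 to 0.85 in Fas+/+ and 0.47 to 0.70 in Fas-/- cells. Without shared barcodes it was 0.55 to 0.78 and 0.41 to 0.60 over 2 classes. It was below 1 in each of these classes, as over all cells (0.73 and 0.61).

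Fbln5 was most abundant outside the mesenchyme, in epithelial-like cells, at 906 UMI CPM in Fas+/+ at 3 weeks and 564 and 756 at 6 weeks, although these cells held few other members. In profibrotic cells it was 154 and 156 at 3 weeks and 92.5 and 42.01 at 6 weeks, and the ratio of Fas-/- to Fas+/+ at 6 weeks was 0.45. Lipofibroblast-like cells held 230 to 354. In bulk at 6 weeks Fbln5 and the epithelial marker sum were both lower in Fas-/- libraries, at 192 to 218 against 235 to 260 CPM for Fbln5. In single cells epithelial-like cells made up 1.6% of the Fas+/+ and 1.8% of the Fas-/- library at 6 weeks. With the epithelial covariate the bulk Fbln5 difference kept its sign, and the part of epithelial cells in it was not tested further.

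Fbln1 and Fbln2 were highest in Col14a1 fibroblast-like cells, the class that holds Pi16. Fbln2 stood there at 301 UMI CPM in naive mice, 428 and 370 at 3 weeks and 524 and 343 at 6 weeks, and at 0.972 to 4.98 in lipofibroblast-like cells. The ratio of Fas-/- to Fas+/+ over all cells was 0.62 (0.57 to 0.67) at 3 weeks and 0.79 (0.75 to 0.82) at 6 weeks. Fbln1 in the same class was 1299, 1148, 986, 1454 and 1278. Mfap5 was highest in profibrotic cells at 3 weeks, at 1597 and 2032, and Fbn1 was 600, 563, 850 and 825 in that class. Efemp2 was spread over the 8 mesenchymal classes plotted, at 61.1 to 228 UMI CPM, and stood at 20.7 to 45.8 in blood endothelial-like and epithelial-like cells.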

How the data were processed

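Bulk reads were trimmed with skewer, aligned by the authors with HISAT2 to GRCm38 and counted per Ensembl gene with HTSeq, and the raw counts they deposited were used. The deposited single-cell counts were UMI matrices from Cell Ranger. The strand setting of the bulk counting was not given in the sources used here. Deposited normalized values were not used.

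Bulk counts were filtered with filterByExpr, scaled by TMM and fitted over all 5 groups with edgeR 4.0.16 (quasi-likelihood F test, Benjamini-Hochberg over 15773 genes, calls at an adjusted p of 0.05). DESeq2 1.42.0, RLE scaling, no filter, a fold-size rule, compared groups only, a replicate block and leaving out each library were alternatives. Levels are CPM, and per-gene group differences also had an exact two-sided permutation test on CPM. The study counts replicates as individual animals, while the GEO labels name no animal for a library. Replicate libraries differed by more than sampling noise. On simulated counts for the genotype comparison at 6 weeks (15773 genes), 61.7% of genes changed by a log2 of 1 and 87.7% of those changed by 2 were recovered.

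Barcodes outside 200 to 7500 detected genes, or above 20% mitochondrial UMIs, were dropped, and the rest clustered with Seurat 5.3.0 on 2969 integration features that excluded the members, at resolution 0.8, and a class was named where its fixed markers led by a mean log2 ratio of 1 (a rule set after the data were seen). A doublet caller marked 0.381% of 12059 cells and was taken not to have worked, so doublets were limited only by the 7500-gene bound and the sort gate. Promoters came from RefSeq tables and gene positions from GENCODE M21. The members and lists were chosen with earlier results of these data known. All 10 members are named. Other genes are named only from the pathway lists (at most 3 with the smallest adjusted p per list and comparison), as markers, or as the 5 most like Eln.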

Additional observations from a re-analysis of the deposited data

Results flagged for a closer look

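In 2 of the 50 group-by-member sets of 4 bulk libraries, 1 library stood away from the others by more than Dixon's 95% critical value, where chance gives about 1 in 20. Fbln2 in Fas-/- mice at 6 weeks was 236.5 CPM in replicate 4, with the other libraries at 135 to 147. Mfap5 in Fas+/+ mice at 3 weeks was 126.6 CPM in replicate 1, with the other libraries at 248 to 263. That library also held the most endothelial marker RNA of its group.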

How the results depend on the processing

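Of the 1430 values of single members under the alternatives, 1279 kept their direction and side of the threshold, 58 lost it, 43 gained it and 50 changed sign; 0 of those that changed sign had passed the test. Calling only changes of at least 1 on the log2 scale left 2 members for Fas+/+ and 2 for Fas-/- at 3 weeks against naive, 2 for 6 against 3 weeks in Fas+/+ and 0 in Fas-/-. DESeq2 gave 1 and 4 for Fas+/+ and Fas-/- at 6 weeks against naive, and 1 in each genotype comparison. Fitting the compared groups only gave 2 and 4 at 6 weeks against naive, and 5 and 1 for 6 against 3 weeks in Fas+/+ and Fas-/-. No filter gave 1 for 6 against 3 weeks in Fas-/-. Without the most endothelial library of each bleomycin group, chosen after seeing the data, the counts were 6 for Fas-/- at 6 weeks against naive, 3 for the genotypes at 3 weeks (8.13% of all genes), 6 for 6 against 3 weeks in Fas-/- and 2 for the interaction (1.58% of all genes). With the epithelial marker mean as covariate, likewise chosen after seeing the data, they were 4 for Fas+/+ at 3 weeks against naive, 0 for Fas-/- at 6 weeks against naive and 1 for 6 against 3 weeks in Fas-/-. No share of all genes is given for the size rule, compared groups only, no filter, the epithelial covariate or leaving out single libraries. Whether those counts moved with the call rate over all genes was not tested.

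Leaving out each library in turn gave 5 to 9 members for Fas+/+ and 4 to 7 for Fas-/- at 3 weeks against naive, 0 to 0 and 0 to 1 at 6 weeks, 0 to 2 and 0 to 0 for the genotypes at 3 and 6 weeks, 5 to 9 and 1 to 2 for 6 against 3 weeks in Fas+/+ and Fas-/-, and 0 to 1 for the interaction. The largest counts for Fas+/+ at 3 weeks, for the genotypes at 3 weeks and for 6 against 3 weeks in Fas+/+ came without replicate 1 of Fas+/+ at 3 weeks, and the 7 for Fas-/- at 3 weeks came without its replicate 4. Replicate numbers did not pair the libraries, since a library correlated best with its own number in 21 of 80 checks. With the replicate block 6 members passed for Fas+/+ at 3 weeks against naive, 7 for 6 against 3 weeks in Fas+/+ and 1 in Fas-/-. Of all genes, 6292, 3399 and 1336 passed in the same order, beside 6517, 3615 and 1422 without the block.

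The epithelial marker mean was at most 1.37 log2 CPM in naive libraries and at least 2.59 in bleomycin libraries. With it as covariate, a difference from naive, here and in the counts above, is therefore an extrapolation. The differences that changed sign are these. With the epithelial covariate they became 0.68 for Eln, 0.50 for Fbn1, 0.053 for Fbln1 and 0.77 for Fbln2 in Fas+/+ at 6 weeks against naive, 0.17 for Fbln2 in Fas-/- at 6 weeks against naive, -0.23 for Efemp2 between genotypes at 6 weeks and 0.021 for Mfap5 in 6 against 3 weeks in Fas+/+. Without the most endothelial libraries they became 0.0020 for Mfap4 in Fas-/- at 3 weeks against naive, -0.084 for Fbn1 between genotypes at 3 weeks and 0.059 for the Efemp2 interaction. Leaving out libraries gave ranges that crossed 0, for Mfap5 (-0.028 to 0.26) in Fas+/+ at 3 weeks, Fbln2 (-0.13 to 0.25) and Mfap4 (-0.21 to 0.0031) in Fas-/- at 3 weeks, Fbln2 (-0.24 to 0.12) and Mfap5 (-0.10 to 0.13) in Fas+/+ at 6 weeks and Fbn1 (-0.085 to 0.10) in Fas-/- at 6 weeks, all against naive. Between genotypes they did so for Eln (-0.0017 to 0.38), Fbn1 (-0.23 to 0.17), Fbn2 (-0.54 to 0.13) and Efemp2 (-0.14 to 0.26) at 3 weeks, and for Fbln1 (-0.094 to 0.016), Efemp2 (-0.050 to 0.063) and Ltbp4 (-0.045 to 0.072) at 6 weeks. They also did so for Mfap5 (-0.23 to 0.050) in 6 against 3 weeks in Fas+/+ and for the Efemp2 interaction (-0.25 to 0.15). The causes were not tested.

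In single cells, leaving out shared barcodes moved 2 of 365 levels by over 1.5 times, leaving out predicted doublets 7 of 405, and a resolution of 0.4 moved 40 of 321 and gave no separate profibrotic fibroblast-like class. Only 20 of the 365 were naive levels, since naive classes left with under 20 cells were not counted. Over all levels compared without shared barcodes, 55 left the counting interval of the full set and 415 stayed within it.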
